A study of Mus musculus with 12 samples.

Results

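The array carried 58 probes for passenger strands of mouse microRNAs (miRNAs), among 417 probes for mouse miRNAs in all. They were chosen by name alone: every probe whose name begins with mmu- and ends in an asterisk, such as miR-17*. For 48 of them the array also held a probe of the same name without the asterisk, called the guide strand below, and the other 10 had no such exact partner. Total RNA came from BC3H1, a mouse brain tumour cell line with muscle-like properties, in 3 groups of 4 arrays. RS_DMSO were rapamycin-sensitive BC3H1 cells given the solvent DMSO for 24 h, and RS_Rap were the same sensitive cells given 100 nM rapamycin, an inhibitor of the mTOR kinase, for 24 h. RR_Rap were cells of the resistant line RR1, which arose from BC3H1 over 6 months in 1 µM rapamycin and remained under it. The resistant group thus differs from the sensitive groups in line, dose and duration together, and it stands for 1 selected line. Nothing in the labels says that replicates were separate cultures, so p-values measure only the spread among these arrays, part or all of which may be technical.

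A miRNA is cut from a hairpin precursor as a short duplex. The guide strand is usually kept in an Argonaute protein and silences messenger RNAs through its seed, the stretch near its 5′ end, while the passenger strand is usually degraded. In the older nomenclature used on this array the asterisk marked the strand recovered less often when the miRNA was named, and for many hairpins both strands can be functional. Because both strands are cut from the same precursor, a change in its transcription or cutting would alter the output of both. A change in strand choice or stability need not alter both alike. On an array a change in a dim strand can go unseen, and most star probes here were dim. The strand differences below are therefore not assigned to any of these steps, and their cause was not tested.

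The sequences below show 7 hairpins on which the results turn, star strand first, in the RefSeq annotation of GRCm38.p6. Capitals mark the seed, bases 2 to 8 counted from the 5′ end. The files hold no probe sequences, so each array name was matched to its hairpin arm by the established renaming of stars to 5p or 3p arms. The hairpin of miR-17 lies at chr14:115043671-115043754 in the miR-17-92 cluster, and those of miR-106b (chr5:138165737-138165818) and miR-93 (chr5:138165523-138165610) both lie within the span of Mcm7, which encodes a replication helicase subunit. The hairpin of miR-30e lies at chr4:120772606-120772697 within Nfyc, and that of miR-22 at chr11:75463716-75463810 within its non-coding host gene Mir22hg. The hairpin of miR-29a lies at chr6:31062660-31062747 with no host gene in that table, and that of miR-433 at chr12:109591715-109591838 within the span of Rtl1, in the imprinted Dlk1-Dio3 region.
miR-17*: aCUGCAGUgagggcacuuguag
miR-17: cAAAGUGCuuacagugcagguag
miR-106b*: cCGCACUGuggguacuugcugc
miR-106b: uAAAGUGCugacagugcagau
miR-93*: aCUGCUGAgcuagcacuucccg
miR-93: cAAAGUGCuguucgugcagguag
miR-30e*: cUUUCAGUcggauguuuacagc
miR-30e: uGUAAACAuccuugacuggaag
miR-22*: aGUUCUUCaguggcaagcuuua
miR-22: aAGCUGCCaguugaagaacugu
miR-29a*: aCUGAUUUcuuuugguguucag
miR-29a: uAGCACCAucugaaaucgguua
miR-433*: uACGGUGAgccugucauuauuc
miR-433: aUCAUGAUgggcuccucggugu

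The guides of miR-17, miR-106b and miR-93 share the seed AAAGUGC, while their stars carry 3 different seeds. The star of miR-17 instead shares its seed with miR-20b*, which differs from it at 3 of 22 bases. Likewise miR-30e* differs from miR-30a* at 1 of 22 bases. Star probes for such near-identical strands may take up each other's RNA, which was not tested.

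Each array compared 1 sample, labelled with Hy3, with a common pool labelled with Hy5, and there was no dye swap. Per the labels the pool was an equal mixture of the 3 conditions, although another label speaks of 9 samples. Values below are log2 ratios of sample to pool after background correction (normexp, offset 50) and loess. Loess centres the ratios at each intensity, so for dim probes a value of 0 need not mean the level of the pool. The star of miR-29a, for example, had means above 0 in all 3 groups: 0.36 in RS_DMSO, 0.31 in RS_Rap and 0.37 in RR_Rap. The offset shrinks the changes of dim probes towards 0. Array RS_DMSO 3 stood apart, with correlations of 0.575 to 0.709 to the other DMSO arrays over all mouse probes, where those correlated with each other at 0.828 to 0.874. The highest of its 7 negative-control probes was also at 304.5 scanner units, against 125.5 to 162 on the other 11 arrays. All arrays were scanned on 1 day with the groups in consecutive runs, so scan order and group cannot be told apart. Of the cell type markers, miR-1 and miR-206 of the 7 muscle-enriched miRNAs and all 6 fibroblast and smooth-muscle miRNAs were above the negative controls, against none of 7 epithelial and none of 3 liver miRNAs. Beyond these, 3 of 7 neuron-enriched and 2 of 6 blood-cell miRNAs were above them. The summed Hy3 signal of the fibroblast and smooth-muscle list, before normalization, was 5408 to 9446 scanner units in RS_DMSO, 9518 to 12322 in RS_Rap and 1796 to 4115 in RR_Rap. Array RR_Rap 2 was dim for several bright probes. There miR-214, a member of this list, was at 245, against 645 to 752 on the other RR_Rap arrays. The guide of miR-17, outside the list, was at 829.5 against 2373 to 2823. The part of this list in the results of the resistant line was not tested.

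Most star probes were dim. The bar for signal was the highest negative control of the array, and a probe that cleared it in Hy3 on 3 or more arrays of some group is called above the negative controls. Of the 58 star probes 20 (34.5%) were. The same count was 34 of the 48 guides (70.8%) and 220 of all 417 mouse probes (52.8%). On single arrays, 11 to 23 star probes and 21 to 34 guides exceeded that array's highest negative control. All 58 stars exceeded the local background in Hy3, but only 16 did so in the pool channel. The mean Hy3 signal of a star probe over the 12 arrays ran from 92.3 to 242 scanner units, with a median of 126.

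Above the highest negative control on all 12 arrays were miR-30e* (164.5 to 326.25 scanner units), miR-433* (151 to 385), miR-200b*, miR-467b* and the combined probe for let-7a* and let-7c-2*. On 11 of 12 arrays this held for miR-17*, miR-29c*, miR-199b* and the combined probes for miR-24-1* and miR-24-2* and for miR-467a* and miR-467d*. For 4 precursors, miR-433, miR-330, miR-200b and miR-485, the star was above the negative controls and the strand named as guide was not. Levels of the 2 strands cannot be compared, since hybridization differs between probes, and miR-330* cleared the bar on 3 RS_DMSO arrays and on none of the other groups. Both strands were above the negative controls for 11 pairs: miR-10a, miR-15b, miR-17, miR-183, miR-22, miR-29a, miR-29b, miR-29c, miR-30e, miR-467b and miR-674.

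**Figure D1:**
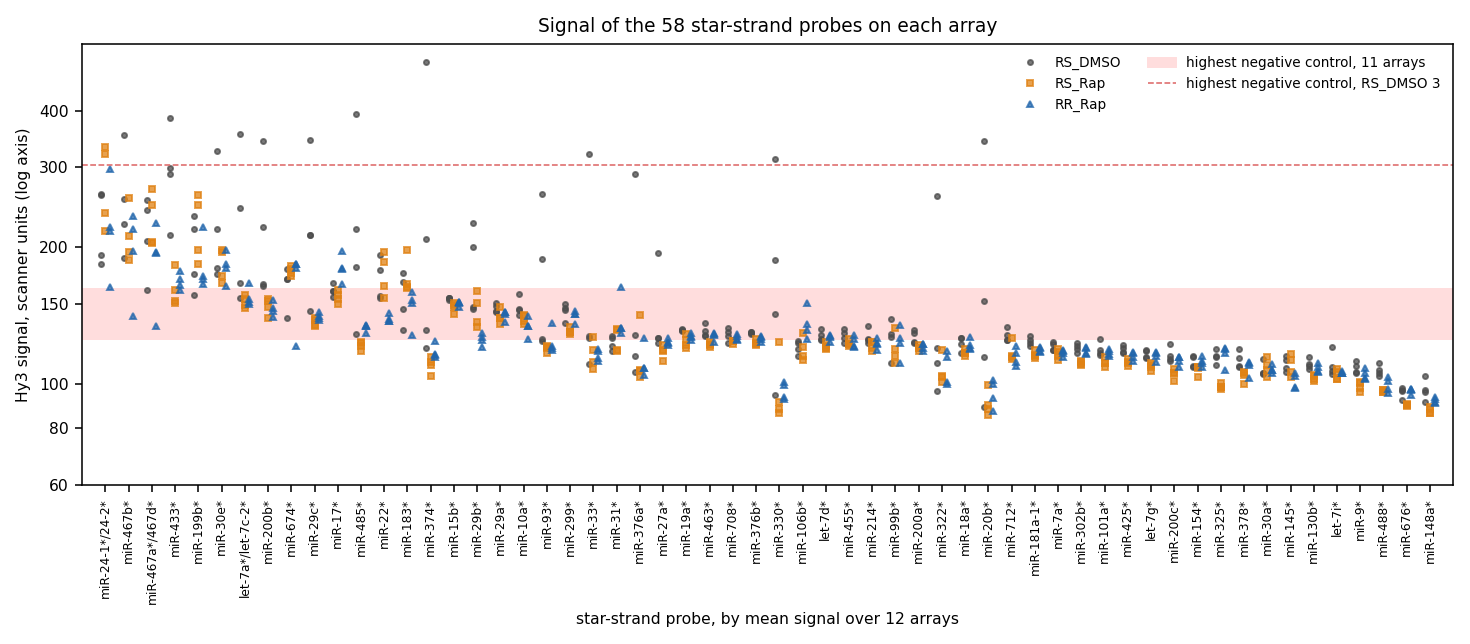
Hy3 signal (scanner units, log axis) of the 58 star probes on each of the 12 arrays, ordered by their mean, with the span of the highest negative control on 11 arrays shaded and that of RS_DMSO 3 dashed. Most probes lie within or below the shaded span of 125.5 to 162, and the points far above their row are mostly DMSO arrays.

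In the resistant line against DMSO, 11 of the 58 star probes changed (limma, Benjamini-Hochberg adjusted over all 417 probes), 5 higher and 6 lower, where 23.3% of all mouse probes changed, 12.9% higher and 10.3% lower. Higher were the stars of miR-17, miR-30e, miR-31, miR-106b and miR-674, and lower were those of miR-433, miR-330, miR-374, miR-29c, miR-29b and miR-376a. The changes were small, from a log2 change of -0.47 to 0.53, and the share of stars called, 19%, was under the background share. Of the 48 guides 21 changed, 12 higher and 9 lower. The arrays of the 2 groups did not overlap for 15 stars (25.9%), where this was so for 25.4% of all probes. Over all 58 stars the median log2 change was -0.03, and over all 417 probes it was -0.01.

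The highest rises among the paired guides were those of miR-17, miR-93 and miR-106b, which share the seed shown above and are known to promote proliferation in many cell types. The star of miR-17 was at -0.19, -0.03, -0.29 and 0.11 in RS_DMSO, at -0.05, -0.02, -0.02 and -0.04 in RS_Rap and at 0.40, 0.37, 0.52 and 0.44 in RR_Rap. All 4 resistant arrays lay above all 8 sensitive arrays. It rose by 0.53 ± 0.07 (SE, n = 4 arrays a group) on the log2 scale against DMSO (limma adjusted p = 0.000156). Its guide was at -1.11, -1.10, -1.07 and -1.13 in RS_DMSO and at 0.58, 0.52, 0.56 and 0.50 in RR_Rap. The guide rose by 1.64 ± 0.05 (adjusted p = 4.94e-11), a 3.13-fold change against 1.45-fold for the star. The difference between the strands, star minus guide, was -1.11 with a 95% interval of -1.31 to -0.91 (limma over 71 strand pairs, adjusted p = 3.48e-07).

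Both strands also rose for miR-106b, a paralogue of miR-17 within Mcm7. Its star was at -0.29, -0.17, -0.20 and -0.27 in RS_DMSO, at -0.18, -0.31, -0.28 and -0.33 in RS_Rap and at 0.08, -0.03, 0.29 and 0.10 in RR_Rap. The resistant arrays again lay above all sensitive arrays, although this star exceeded the highest negative control on only 3 arrays. The star rose by 0.34 ± 0.06 (limma adjusted p = 0.00155) and the guide by 1.31 ± 0.09 (adjusted p = 4.53e-07), and the strands differed by -0.97 (interval -1.20 to -0.74).

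The neighbouring miR-93 went otherwise. Its guide was at -0.96, -0.79, -1.51 and -0.87 in RS_DMSO and at 0.46, 0.31, 0.46 and 0.39 in RR_Rap, a rise of 1.44 ± 0.12 (limma adjusted p = 2.75e-06). Its star was at 0.36, 0.13, 0.48 and 0.50 in RS_DMSO and at 0.34, -0.10, 0.12 and 0.12 in RR_Rap, and these groups overlapped. The star's log2 change was -0.25 (adjusted p = 0.0943), and it was called lower without RS_DMSO 2 (-0.33, limma adjusted p = 0.0198) or without RR_Rap 1 (-0.32, adjusted p = 0.0321). The difference of the strands, -1.69 (interval -2.04 to -1.33), was the widest of all 48 pairs in this comparison. Like the star of miR-106b, miR-93* was not above the negative controls by the rule used here.

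Of the 6 stars of the miR-17 clusters, 2 rose and 4 did not pass the test, with a median log2 change of 0.01. The guides of miR-18a, miR-19a and miR-20b rose by 1.24, 0.97 and 0.72, and the log2 changes of their stars were 0.03, -0.01 and -0.21. The strands differed in all 3 pairs, with adjusted p from 2.59e-08 to 0.000369 (limma). Only miR-17* of the 6 stars was above the negative controls.

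Of the other stars that rose, miR-30e* was at 0.06, 0.35, -0.41 and 0.30 in RS_DMSO, at 0.25, 0.25, 0.29 and 0.37 in RS_Rap and at 0.50, 0.50, 0.52 and 0.46 in RR_Rap. Its lowest value was on RS_DMSO 3, and every resistant array was above every sensitive one. The star rose by 0.42 ± 0.13 (limma adjusted p = 0.036) and its guide, a member of the miR-30 family found in many differentiated tissues, by 0.83 ± 0.14 (adjusted p = 0.000865). The strands differed by -0.41 (interval -0.53 to -0.29), a call lost with an offset of 10 (-0.26, limma adjusted p = 0.118) and in the sample channel alone (-0.32, adjusted p = 0.119). The other star of the family on the array, miR-30a*, had a log2 change of -0.02.

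The guide of miR-31, which acts in muscle and in several tumours, rose by 0.87 ± 0.11 (limma adjusted p = 7.78e-05) and its star by 0.36 ± 0.11 (adjusted p = 0.0344). The star was at -0.50, -0.00, -0.04 and -0.22 in RS_DMSO and at 0.10, 0.03, 0.44 and 0.08 in RR_Rap, so the groups were apart by little. It exceeded the highest negative control on only 4 of the 12 arrays and was not above the negative controls by the rule used here. The star of miR-674 was at -0.49, -0.15, -0.65 and -0.16 in RS_DMSO and at 0.07, -0.14, -0.04 and 0.04 in RR_Rap. It rose by 0.34 ± 0.10 (adjusted p = 0.0272), while its guide had a log2 change of -0.08 (adjusted p = 0.542), and the strands differed by 0.42 (interval 0.21 to 0.63). That made miR-674 the only pair in this comparison in which the star rose and the guide was not called.

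**Figure D2:**
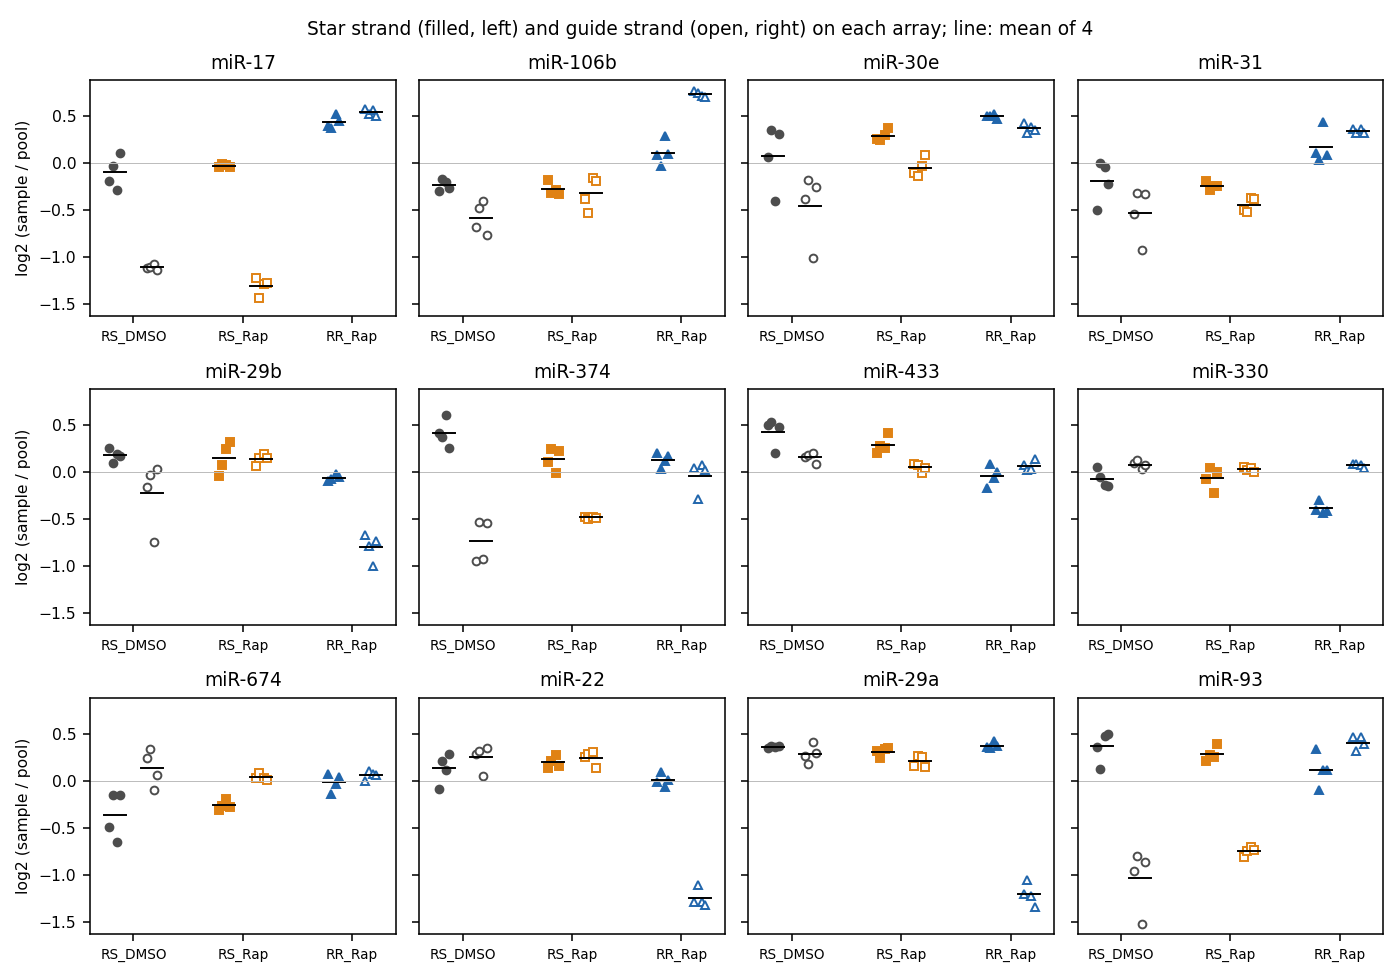
Log2 ratio to the pool on each array for the star (filled) and the guide (open) of 12 precursors, with the mean of the 4 arrays of each group as a line. For miR-17 both strands are higher in RR_Rap, for miR-22 and miR-29a the guide falls below -1 while miR-29a* stays near its level in the sensitive cells, and for miR-433 and miR-330 the star falls while the guide stays near 0.

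The guides that fell most belonged to miR-22 and miR-29a. Guides of the miR-29 family are known to repress collagen and other matrix genes, and miR-22 acts in heart and skeletal muscle. The guide of miR-29a was at 0.26, 0.18, 0.42 and 0.29 in RS_DMSO and at -1.20, -1.05, -1.22 and -1.34 in RR_Rap, a log2 change of -1.49 ± 0.07 (limma adjusted p = 5.37e-09). Its star was at 0.35, 0.37, 0.36 and 0.37 in RS_DMSO and at 0.35, 0.35, 0.42 and 0.37 in RR_Rap. The star's log2 change was 0.01 with a 95% interval of -0.07 to 0.08, with all 8 arrays between 0.35 and 0.42. This star was dim, at 135.5 to 151 scanner units in Hy3 over the 12 arrays. The highest negative control was at 125.5 to 162, RS_DMSO 3 left aside. The star exceeded it on 2 of 4 RS_DMSO arrays and on 3 of 4 RR_Rap arrays. The part of dim signal in the narrow interval was not tested. The strands differed by 1.50 (interval 1.33 to 1.67, adjusted p = 6.96e-09).

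The guide of miR-22 went from 0.29, 0.31, 0.05 and 0.35 in RS_DMSO to -1.28, -1.11, -1.29 and -1.32 in RR_Rap, a log2 change of -1.50 ± 0.07 (limma adjusted p = 9.54e-09). Its star was at -0.08, 0.21, 0.11 and 0.29 in RS_DMSO and at -0.02, 0.09, -0.06 and 0.01 in RR_Rap, and the groups overlapped. The star's log2 change was -0.13 (interval -0.28 to 0.03, limma adjusted p = 0.253), and the strands differed by 1.37 (interval 1.19 to 1.55). The star was called lower without loess (-0.30), with the processed signals (-0.53), in the authors' value table (-0.34) and without RS_DMSO 1 (-0.20, adjusted p = 0.0272). Both strands of miR-22 and of miR-29a were above the negative controls.

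Of the 3 miR-29 stars, 2 fell and miR-29a* did not pass the test. The star of miR-29b was at 0.25, 0.10, 0.19 and 0.17 in RS_DMSO and at -0.09, -0.07, -0.03 and -0.06 in RR_Rap, apart on all arrays. It fell by 0.24 on the log2 scale (SE 0.07, limma adjusted p = 0.0259) and its guide fell by 0.57 (SE 0.14, adjusted p = 0.0108), the only pair in which both strands fell. Their difference was not called, at 0.33 with an interval from -0.00 to 0.66. The star of miR-29c went from 0.67, 0.57, 0.51 and 0.59 to 0.42, 0.45, 0.08 and 0.36, a log2 change of -0.26 ± 0.08 (adjusted p = 0.0272), and its guide's log2 change was -0.06 (adjusted p = 0.608). The call of miR-29c* was lost without background subtraction, with an offset of 10 and without loess. It was also lost with the processed signals, in the sample channel alone and in the value table. Though the 3 miR-29 guides share a seed, the stars of miR-29a and miR-29c do not.

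Within the Dlk1-Dio3 region, an imprinted cluster with many miRNAs active in embryo, brain and muscle, 2 of 6 stars fell and 4 did not pass the test. The star of miR-433 was at 0.50, 0.53, 0.20 and 0.47 in RS_DMSO, at 0.19, 0.27, 0.26 and 0.41 in RS_Rap and at -0.17, 0.08, -0.07 and 0.00 in RR_Rap. By these ratios all resistant arrays were below all sensitive arrays, and its log2 change of -0.47 ± 0.08 (limma adjusted p = 0.000783) was the largest fall among the stars. In Hy3 signal before normalization it was at 213 to 385 scanner units in RS_DMSO, 151 to 183 in RS_Rap and 161 to 178 in RR_Rap. There the resistant arrays overlapped those of RS_Rap. Its guide was dim, at 0.16, 0.18, 0.20 and 0.09 in RS_DMSO and at 0.07, 0.02, 0.03 and 0.14 in RR_Rap. The guide's log2 change was -0.09 (adjusted p = 0.149), and the strands differed by -0.37 (interval -0.58 to -0.17). That difference was not called in the sample channel alone (-0.21) and turned to 0.048 with the processed signals. The other star that fell was miR-376a*, by 0.21 on the log2 scale (SE 0.05, adjusted p = 0.00984), with no exact guide probe on the array.

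The star of miR-330 also fell without its guide. It was at 0.06, -0.05, -0.14 and -0.15 in RS_DMSO and at -0.40, -0.29, -0.44 and -0.42 in RR_Rap, a log2 change of -0.32 ± 0.06 (limma adjusted p = 0.00312). The guide, not above the negative controls, stayed between 0.03 and 0.12 on those 8 arrays, and the strands differed by -0.31 (interval -0.46 to -0.15).

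Both strands of miR-374 were called in opposite directions, the only such pair in the main setting. Its star was at 0.41, 0.37, 0.60 and 0.25 in RS_DMSO and at 0.20, 0.03, 0.12 and 0.17 in RR_Rap, a log2 change of -0.28 ± 0.08 (limma adjusted p = 0.0197). Its guide was at -0.94, -0.53, -0.92 and -0.54 in RS_DMSO and at 0.04, -0.29, 0.07 and 0.02 in RR_Rap, a log2 change of 0.69 ± 0.11 (adjusted p = 0.000336). The strands differed by -0.98 (interval -1.28 to -0.67). This star was not above the negative controls. Its call was lost without background subtraction, with an offset of 10, without loess and with the processed signals. It was also lost in the sample channel alone, in the value table and with the replicate block. The opposite directions of the 2 calls thus rest on the main setting, while the strand difference was called in all 19 alternatives.

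Set side by side over the 48 pairs, both strands of a precursor were called in 6, 5 of them in the same direction (miR-17, miR-30e, miR-31, miR-106b and miR-29b). Of all 58 stars 11 were called in this comparison, and of all 417 mouse probes 23.3%. Whether 6 joint calls are more or fewer than unrelated strands would give was not tested. Where the guide rose, the star was not called in 7 of 12 pairs, and where the guide fell, it was not called in 8 of 9. Over the 12 pairs with a higher guide the median log2 change was 0.86 for guides and 0.01 for stars, and over the 9 with a lower guide it was -0.44 and -0.03. In 4 pairs (miR-674, miR-433, miR-330 and miR-29c) only the star was called, and in 23 pairs neither strand was.

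The difference between the strands was called in 22 of 48 star and guide pairs, where 36.6% of all 71 strand pairs, which include 23 with 5p and 3p names, were called. The guide changed more in size in 19 of these 22, the exceptions being miR-674, miR-433 and miR-330. Besides the pairs described above, the guides of miR-130b, miR-378 and miR-183 rose by 0.85, 0.78 and 0.70, with star changes of -0.04, -0.04 and 0.08. The guides of miR-214, let-7i, miR-10a and miR-708 fell by 0.70, 0.44, 0.42 and 0.32 on the log2 scale, and the log2 changes of their stars were -0.04, 0.03, -0.01 and -0.02. For miR-33 the strands differed by 0.34 (limma adjusted p = 0.0227) with neither strand called. In the median pair the 95% interval of the strand difference reached 0.20 to either side, so in many pairs smaller differences could go undetected.

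Across the 48 pairs the changes of the 2 strands had the same sign in 29, with Pearson's r of 0.33 and Spearman's rho of 0.18, given as a description, since the pairs share the same 8 arrays and many probes are dim. Among the 11 pairs with both strands above the negative controls r was 0.68, and the strands differed in 7 of them (miR-10a, miR-17, miR-183, miR-22, miR-29a, miR-30e and miR-674). A probe can enter that set through the group in which it is bright, so the count is also a description. The part of dim signal in the small star changes was not tested. The signal itself was low for every called star: over local background, the 15 stars called in any comparison had a mean of 49.8 to 147 scanner units in Hy3, and only 5 (miR-17*, miR-30e*, miR-31*, miR-433* and miR-674*) had a mean above 0 in the pool channel.

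**Figure D3:**
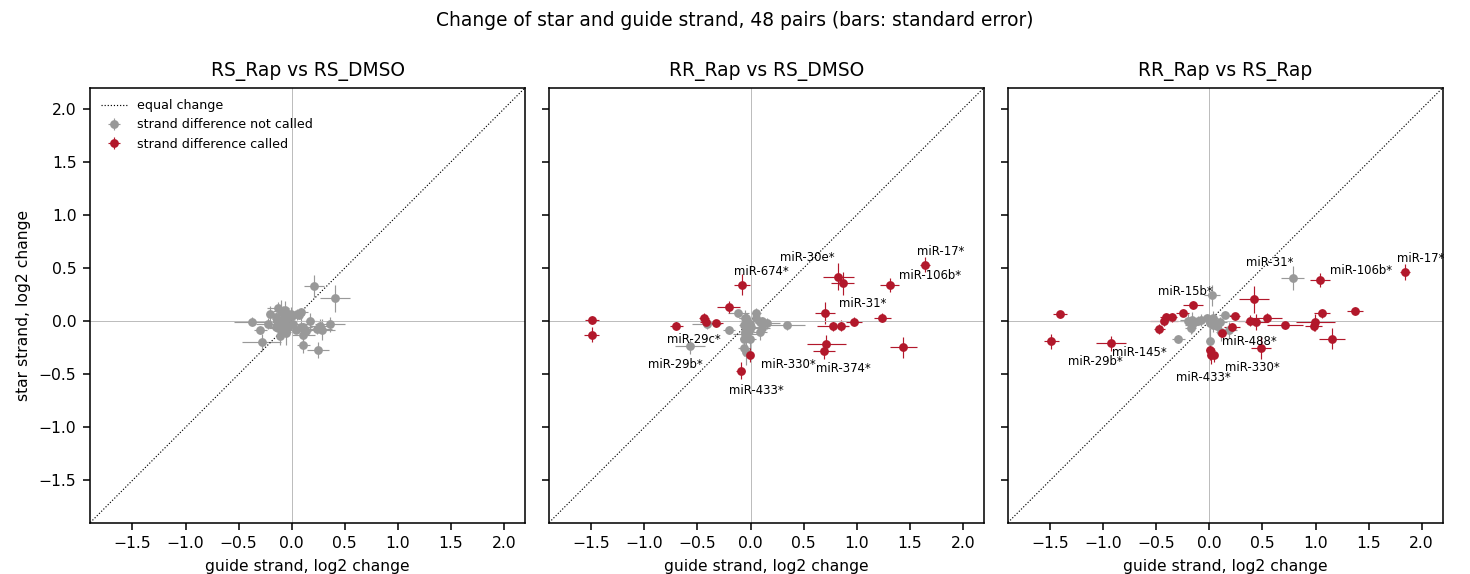
Log2 change of the star (vertical axis) against that of its guide (horizontal axis) for 48 pairs in the 3 comparisons, with standard errors, names of called stars and the line of equal change. In RR_Rap against RS_DMSO guide changes run from -1.50 to 1.64 and star changes from -0.47 to 0.53, so the called differences, in red, lie along the horizontal axis more than along the dotted line.

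Calls of single stars against DMSO depended on the settings in most cases. The calls of miR-17* (log2 change 0.19 to 0.97) and miR-433* (-0.68 to -0.34) held in all 20 alternatives, and that of miR-106b* was lost only in the authors' value table, with 0.18. The other 8 were each lost in 4 to 9 alternatives. Without normalization by loess the log2 change was 0.16 for miR-30e*, 0.09 for miR-674*, -0.20 for miR-374*, -0.29 for miR-330*, -0.22 for miR-29c* and -0.22 for miR-376a*, none of them called. Leaving out RS_DMSO 3 gave 12 called stars, among them all 11, and 24 called strand differences, among them 21 of the 22; the difference of miR-33 was then 0.27 (limma adjusted p = 0.0543), and it was also lost without RS_DMSO 2, RR_Rap 1 or RR_Rap 4 (0.0574 to 0.0881). Of the 22 strand differences, the processed signals gave 17 as called and the sample channel alone gave 15. Those lost in the sample channel alone were miR-183 (-0.66), miR-30e, miR-31, miR-33, miR-330 (-0.57), miR-378 (-0.53) and miR-433. With the processed signals they were let-7i (0.053), miR-10a (0.42), miR-214 (0.46), miR-31 and miR-433. The strand difference of miR-31 was also lost without loess (-0.19), with an offset of 10 and in the value table (-0.24), where that of miR-330 was lost as well (-0.39). Leaving out other single arrays ended the calls of miR-30e* (without RS_DMSO 1, RS_Rap 1 or 2 or any RR_Rap array, adjusted p of 0.0503 to 0.0813), miR-31* (without RS_DMSO 1 or 4 or RR_Rap 1, 3 or 4, 0.0517 to 0.0974) and miR-674* (without RS_DMSO 1 or RR_Rap 1, 3 or 4, 0.0568 to 0.0802). The same held for miR-29b* (without RS_DMSO 1 or RR_Rap 1, 2 or 4, 0.0568 to 0.0726), miR-29c* (without RS_DMSO 1 or RR_Rap 4, 0.0777 and 0.053) and miR-374* (without RR_Rap 2, 0.06).

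**Figure D4:**
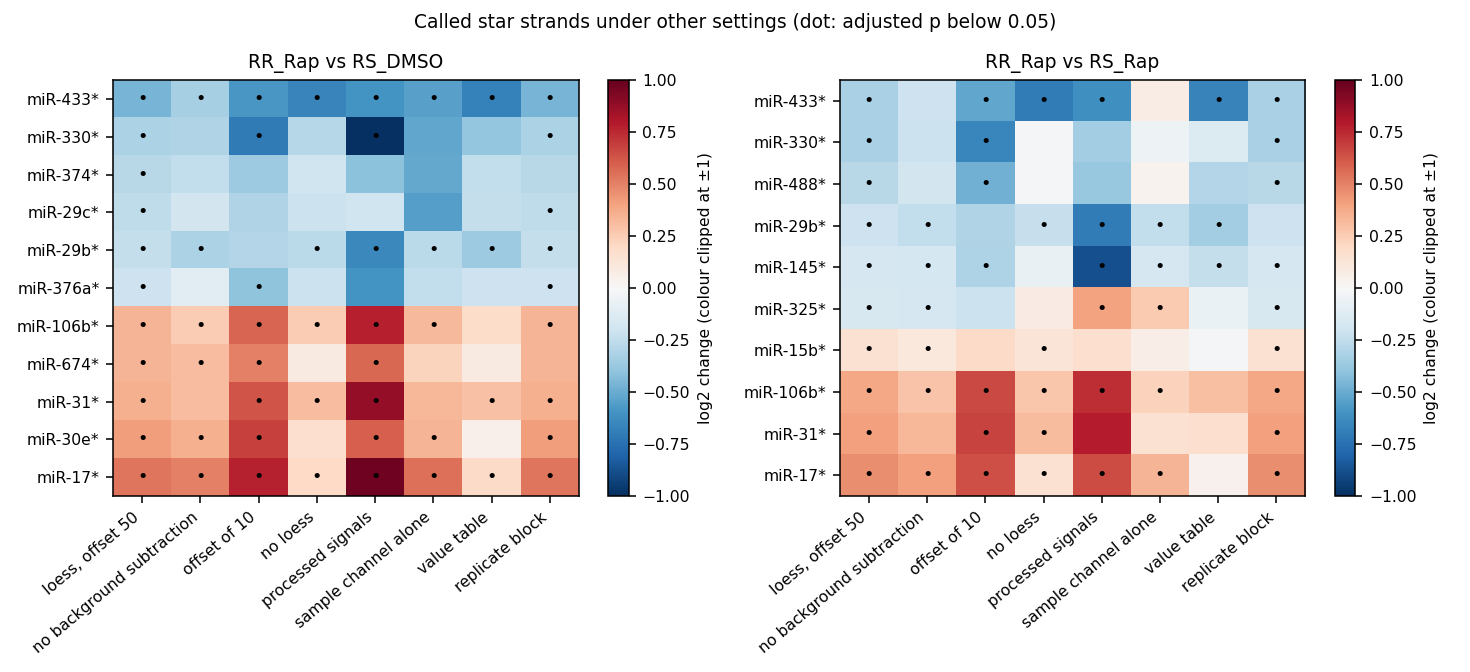
Log2 change of each called star under the main setting (loess, offset 50) and 7 others, for the resistant line against DMSO and against 24 h rapamycin, with a dot where the adjusted p was below 0.05. The rows of miR-17* and miR-433* against DMSO carry a dot in every column, while miR-325* in the right panel turns from -0.16 to 0.40 with the processed signals.

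Against sensitive cells given rapamycin for 24 h, 10 of the 58 stars changed in the resistant line, 4 higher and 6 lower, where 29% of all mouse probes changed, 15.1% higher and 13.9% lower. This comparison shares the resistant arrays with that against DMSO, so the values are given side by side and not as independent support. The stars of miR-17, miR-31 and miR-106b were higher here too, by 0.46, 0.41 and 0.39, and those of miR-433, miR-330 and miR-29b were lower, with log2 changes of -0.32, -0.32 and -0.21. The call of miR-330* was lost without background subtraction (-0.21), without loess (-0.02), with the processed signals (-0.35), in the sample channel alone (-0.052) and in the value table (-0.14). That of miR-433* was lost without background subtraction (-0.20), and its change turned to 0.072 in the sample channel alone. The call of miR-31* was lost in the same settings as that of miR-330* except without loess (0.16 to 0.78). That of miR-29b* was lost with an offset of 10 (-0.30) and with the replicate block. Those of miR-17* (0.045) and miR-106b* (0.30) were lost in the value table. The stars of miR-30e, miR-374, miR-674, miR-29c and miR-376a were called against DMSO only, with log2 changes here of 0.20, -0.01, 0.24, -0.03 and -0.10. Without RS_DMSO 3, miR-30e* and miR-674* were called here too (limma adjusted p = 0.0177 and 0.0236), as was miR-376a* with an offset of 10 (-0.27). Arrays of the 2 groups did not overlap for 20 stars (34.5%), where they did not for 39.8% of all probes. Over all 58 stars the median log2 change was -0.0047, against 0.03 over all probes.

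Called in this comparison alone were miR-15b* (higher) and miR-488*, miR-145* and miR-325* (lower). The star of miR-15b, whose guide is a relative of miR-16 and restrains the cell cycle, was at 0.35, 0.28, 0.37 and 0.33 in RS_Rap and at 0.47, 0.47, 0.52 and 0.48 in RR_Rap. The groups were apart, and the rise was 0.15 ± 0.04 (limma adjusted p = 0.00631). That call was lost with an offset of 10 (0.19), with the processed signals (0.17) and in the sample channel alone (0.069), and the change turned to -0.013 in the value table. In the main setting the guide's log2 change was -0.16 (limma adjusted p = 0.276) and the strands differed by 0.31 (interval 0.11 to 0.51). Of miR-145, a guide known from smooth muscle, both strands were called: the star went from -0.22, -0.29, -0.22 and -0.17 in RS_Rap to -0.44, -0.31, -0.40 and -0.43 in RR_Rap, a log2 change of -0.17 ± 0.04 (adjusted p = 0.00756), lost without loess (-0.076). Its guide's log2 change was -0.29 ± 0.06 (adjusted p = 0.00276), and the difference of the strands, 0.13 (interval -0.01 to 0.26), was not called.

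The star of miR-488 had a log2 change of -0.28 (limma adjusted p = 0.0353) with overlapping groups, and miR-325* one of -0.16 (adjusted p = 0.0335). Neither these stars nor miR-145* exceeded the highest negative control on any array. The log2 change of miR-325* turned to 0.082 without loess, 0.40 with the processed signals and 0.26 in the sample channel alone, so its direction is not settled. The call of miR-488* was lost without background subtraction, without loess, with the processed signals, in the sample channel alone and in the value table. The call of miR-325* also ended without any 1 of RS_Rap 1, 2 or 3 or of the RR_Rap arrays (adjusted p of 0.0508 to 0.0874), and that of miR-488* without RS_Rap 1, 2 or 3 or RR_Rap 3 or 4 (0.0619 to 0.106). The call of miR-29b* ended without RS_Rap 3 or 4 or any RR_Rap array (0.063 to 0.11).

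The strands differed in 28 of 48 pairs in this comparison, where 47.9% of all 71 strand pairs did, and the guide changed more in size in 25 of the 28. Both strands were called in 5 pairs, all in the same direction: miR-17, miR-31 and miR-106b higher, and miR-29b and miR-145 lower. For miR-17 the guide rose by 1.85 and the strands differed by -1.38 (interval -1.58 to -1.18). For miR-29a and miR-22 the guides had log2 changes of -1.41 and -1.49, their stars 0.06 and -0.19, and the strands differed by 1.47 and 1.30. The resistant arrays of miR-22* lay below all RS_Rap arrays (limma adjusted p = 0.0705), and this star was called lower without loess (-0.34), with the processed signals (-0.63), in the value table (-0.45) and without RS_DMSO 1 or 4 (-0.19 for each). For miR-29b, whose strand difference was not called against DMSO, it was 0.72 here (interval 0.39 to 1.05, limma adjusted p = 0.00158), a call lost with the processed signals (0.62) and in the sample channel alone (0.78).

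Called strand differences absent from the comparison with DMSO also included miR-7a, where the guide rose by 0.71 and the star's log2 change was -0.04, and miR-455, where the guide's was -0.43 and the star's -0.00. The guide of miR-30a rose by 0.38 and that of let-7d by 0.24 with star changes of 0.00 and 0.05. For miR-9 and miR-425 neither strand was called, and the strands differed by -0.23 and -0.27. The strand differences of let-7d, miR-30a, miR-30e, miR-374 and miR-425 changed sign without loess and in the authors' value table, and that of miR-9 in the value table alone, so no order between those strands is settled. Leaving out 1 array ended the strand calls of miR-15b (RS_Rap 1), miR-374 (RS_Rap 2), miR-378 (RS_Rap 1 or RR_Rap 1), miR-425 (RS_Rap 4, RR_Rap 1 or 4) and miR-488 (RS_Rap 1 or 2 or RR_Rap 3), with limma adjusted p of 0.0502 to 0.0666. The same was so for miR-9 (RS_Rap 1 or 2, RR_Rap 1 or 3), miR-455 (RS_Rap 2, 3 or 4 or RR_Rap 4) and let-7d (RS_Rap 1, 2 or 4 or RR_Rap 1, 3 or 4), with adjusted p of 0.0502 to 0.0765. The strand call of miR-455 was also lost without background subtraction, with the processed signals, in the sample channel alone, in the value table and with the replicate block. Those of miR-374, miR-378 and miR-488 were lost in these settings other than the replicate block, and also without loess. That of miR-15b was lost without background subtraction, with the processed signals and in the sample channel alone.

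After 24 h of rapamycin in sensitive cells no star was called, where 3.36% of all mouse probes changed, 1.68% higher and 1.68% lower. By limma 11 of the 58 stars (19%) had an unadjusted p under 0.05, where 98 of all 417 mouse probes (23.5%) did. The same count was 16 of the 48 guides (33.3%). The log2 changes of the stars ran from -0.27 to 0.52. The widest change was that of the combined miR-24-1* and miR-24-2* probe, at -0.25, 0.02, -0.92 and 0.05 in RS_DMSO and at 0.14, 0.11, 0.36 and 0.37 in RS_Rap. The groups were apart, with the lowest value on RS_DMSO 3, and the log2 change was 0.52 ± 0.17 (adjusted p = 0.102). Its guide miR-24, a looser match that drops the locus number, had a log2 change of 0.20 ± 0.06 (adjusted p = 0.0622).

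The next by unadjusted p were miR-374*, with -0.27 ± 0.08 (limma adjusted p = 0.0618), miR-325*, with 0.18 ± 0.05 (adjusted p = 0.0622), and miR-183*, with 0.33 ± 0.10 (adjusted p = 0.0805). The star of miR-183 was at -0.54, -0.18, -0.36 and -0.08 in RS_DMSO and at 0.14, -0.04, -0.10 and 0.14 in RS_Rap, overlapping by 1 array. Arrays of the 2 groups did not overlap for 7 of the 58 stars, or 12.1%, where this was so for 14.9% of all probes. Of the 48 guides, miR-17 and miR-214 fell, by 0.20 and 0.29 on the log2 scale, and the stars of neither were called.

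No strand difference was called after 24 h, of 48 or of all 71 pairs. An unadjusted p under 0.05 (limma) was found for 10 of the 48 (20.8%). It was also found for 8 of the 23 pairs with 5p and 3p names (34.8%). Both counts are given as a description only. The number of calls depended on the processing: without loess 7 stars and 20 strand differences were called, and 6 and 17 in the value table of the authors. The combined miR-24-1* and miR-24-2* probe and miR-183* were each called with the processed signals, without loess, without background subtraction and in the value table. Without RS_DMSO 3, 2 stars (miR-325*, 0.22, and miR-200b*, -0.25) and 1 strand difference were called.

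Of the 10 stars with no exact guide probe, miR-376a* and miR-325* were called, as given above. The combined guide probe for miR-199a-3p and miR-199b, miRNAs of fibroblasts and smooth muscle, fell by 0.49 on the log2 scale in the resistant line against DMSO (SE 0.05, limma adjusted p = 2.31e-05), and miR-199b* had a log2 change of 0.12 (adjusted p = 0.426). The guide let-7c fell by 0.17 on the log2 scale (adjusted p = 0.0216), while the combined probe for let-7a* and let-7c-2* had a log2 change of -0.06 (adjusted p = 0.698). None of the 4 let-7 stars and neither of the 2 stars of neuron-enriched miRNAs was called in any comparison. In all, 43 of the 58 stars were called in none of the 3 comparisons.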

How the data were processed

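Hy3 (sample) and Hy5 (pool) spot intensity values were deposited without normalization. They come from Agilent Feature Extraction, per the file headers, in version 9.5.3.1, per the submitters' processing notes. The authors' value table holds log2 values with r of 0.977 to 1.00 to the raw log2 ratio of sample over pool and array medians of 0.393 to 0.604. Its direction is thus sample over pool, without visible centring, and the sources used here do not say how spots were summarised. Mean signals were corrected in limma 3.58.1 (R 4.3.3) by normexp with an offset of 50 and normalized by loess with control spots at weight 0. The unflagged spots of a probe (4 per array) were averaged, and 19 of 2784 star spots were left out. No star spot was saturated. One limma fit (lmFit and eBayes) to the 12 arrays gave all comparisons, adjusted by Benjamini-Hochberg over 417 mouse probes, with a threshold of 0.05. A second fit used the star minus guide log2 ratio on each array, adjusted over 71 strand pairs. The fits were tested on simulated data. Names follow the array. Named with values are stars called in any comparison, pairs whose strand difference was called, and stars whose guide was called in both comparisons of the resistant line. Members and lists were chosen with earlier results of these data known. The number of arrays limits the precision. Other background corrections and normalizations, the sample channel alone, the value table, a filter on dim probes, a replicate block and leaving out each array were tried.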

Additional observations from a re-analysis of the deposited data

Results flagged for a closer look

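Groups of 4 arrays were examined for the stars with a called change or a called strand difference, and not for guides. In 6 of these 105 groups 1 array lay far from the other 3 by Dixon's criterion, and chance gives about 1 in 20 groups. The lowest log2 ratio of miR-376a* in RS_Rap was 0.0390 on array 2, with the others at 0.149 to 0.157. That array also had the highest value of miR-20b* in RS_Rap, 0.10, with the others at -0.0277 to -0.00831. Among the resistant arrays, miR-708* was lowest on array 4 at 0.128 (others 0.163 to 0.169), and miR-130b* was lowest on array 3 at -0.132 (others -0.0107 to 0.00338). The highest value of miR-15b* in RR_Rap was 0.522 on array 3 (others 0.468 to 0.476), and the lowest of miR-183* was -0.409 on array 2 (others -0.176 to -0.131). The cause of these deviations was not tested.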

How the results depend on the processing

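Stars called after 24 h of rapamycin numbered 0 in the main setting, 4 without background subtraction, 7 without loess, 6 with the processed signals, 6 in the value table, and 0 to 3 with 1 array left out. Strand differences called after 24 h numbered 0, then 2, 20, 2 and 17 in the same settings, 2 when only probes above the negative controls were fitted, and 0 to 2 with 1 array left out. Against DMSO the 11 called stars became 6 in the sample channel alone, 6 in the value table and 7 among probes above the negative controls (20 stars tested), and 6 to 13 with 1 array left out, 6 being without RR_Rap 4. The 22 strand differences became 7 among the 11 pairs above the negative controls and 21 to 24 with 1 array left out. Against 24 h rapamycin the 10 called stars became 32 without loess, 5 in the sample channel alone and 5 among probes above the negative controls, and 7 to 14 with 1 array left out. The 28 strand differences became 11 with the processed signals, 14 in the sample channel alone, 18 in the value table and 8 among pairs above the negative controls, and 23 to 32 with 1 array left out. The lower counts among probes above the negative controls follow from fewer members tested; for the other settings the cause was not tested.

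The split of higher and lower stars also moved. Against DMSO it was 5 and 6 in the main setting, 6 and 3 without background subtraction, 5 and 3 with an offset of 10, 8 and 5 without loess and 2 and 4 in the value table. Against 24 h rapamycin it was 4 and 6, but 21 and 11 without loess, 3 and 2 in the sample channel alone and 0 and 11 in the value table.

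Signs turned against 24 h rapamycin for miR-15b* in the value table (-0.013), for miR-325* without loess (0.082), with the processed signals (0.40) and in the sample channel alone (0.26), and in the sample channel alone for miR-433* (0.072) and miR-488* (0.037). Without loess the strand difference turned to 0.62 for let-7d, 0.29 for miR-30a, 0.022 for miR-30e, 0.00186 for miR-374, 0.052 for miR-378 and 0.10 for miR-425. In the value table it turned to 0.26 for let-7d, 0.16 for miR-30a, 0.010 for miR-30e, 0.019 for miR-374, 0.067 for miR-425 and 0.30 for miR-9. That of miR-433 turned to 0.064 in the sample channel alone and, against DMSO, to 0.048 with the processed signals.

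Samples with the same replicate number did not visibly deviate together, with residual correlations of -0.11 to 0.15 and 2 of 12 pairs over 0.1. Such correlations cannot settle whether the numbers pair samples. With the replicate block 0, 9 and 9 stars and 0, 22 and 28 strand differences were called after 24 h, against DMSO and against 24 h rapamycin. A slide or scan-day block was not run, because each array is its own slide and all were scanned on 1 day. Signal was low: 38 of the 58 stars were not above the negative controls.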
